A study of Mus musculus with 24 samples.

Results

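The constructs compared here were ceramic granules that carried bone marrow stromal cells and regulatory T cells, BCP+MSC+Treg, and the same ceramic without cells, BCP. They were chosen by their group label alone, 4 samples of each, so that 8 of the 24 samples of the series are described, and 30564 of the 39183 genes with any count were tested. Biphasic calcium phosphate (BCP) is a ceramic bone substitute. Each construct held 40 mg of its granules, seeded in BCP+MSC+Treg with 800000 mesenchymal stromal cells (MSC) from the bone marrow of C57BL/6J mice at passage 2, together with Treg at a 1:1 ratio for 36 h. The Treg were CD4+CD25+Foxp3+ cells sorted from the spleens of Foxp3-DTR/eGFP mice and activated for 1 h with antibodies to CD3 and CD28. Constructs of both groups were put in subcutaneous dorsal pockets, 2 of the same group in each mouse, and were collected at week 2. All hosts were male and female Foxp3-DTR/eGFP mice aged 8 to 9 weeks, whose Foxp3-expressing cells bear a diphtheria toxin receptor and eGFP, and neither group described here was given the toxin. The comparison asks how an implant that carried MSC and Treg differed from the bare implant after the early host response.

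Each sample came from a different animal and holds the RNA of the whole construct, implanted and host cells together. The counts do not separate implanted from host cells, and in such bulk samples fewer cells of a type and less RNA per cell cannot be told apart. The groups also differed in MSC and Treg at once, so that the parts of the MSC and of the Treg cannot be told apart from this comparison. BCP+MSC constructs, which carried MSC without Treg, are given beside single results.

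A ceramic placed under the skin is met by a host response in which neutrophils, monocytes and macrophages enter, fibroblasts lay down collagen, and macrophages on the surface can fuse to giant cells. Stromal cells of the marrow can form bone matrix in this ectopic site, and their fate depends on the T cells, macrophages and cytokines around them. Regulatory T cells restrain effector T cells and their interferon, and release growth factors of the EGF family such as amphiregulin.

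The 8 libraries held 10567666 to 134691903 counts each, which is a 12.7-fold range, and the 3 shallowest were BCP replicates 1 and 4 and BCP+MSC+Treg replicate 4. Values per sample are CPM, counts scaled to a common library size, after TMM normalization, and differences are log2 fold changes of BCP+MSC+Treg over BCP with the standard error (SE) of the edgeR model. Xist lay above the Y-linked genes in 1 sample of each group. Skeletal muscle genes stood at a mean log2 CPM of 4.2 to 6.81 in BCP and 4.42 to 7.29 in BCP+MSC+Treg. The lowest sample of each group in this measure was replicate 4, which is also among the 3 shallowest samples.

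No gene passed an adjusted p-value under 0.05 with a fold change beyond 2 in either direction by edgeR's quasi-likelihood test with Benjamini-Hochberg adjustment (0 genes, 0%, lowest adjusted p = 0.614). At an unadjusted p under 0.05 there were 2322 genes (7.60% of those tested). DESeq2 called 3 genes at the adjusted threshold when fitted to all samples, Fosb and Ucp1 among them with Igkv4-54, and 7 when fitted to these 2 groups, among which were Fosb, Megf6 and Ighv1-22. Below, a gene is called higher or lower at an unadjusted edgeR p under 0.05 together with a log2 fold change above 1 or below -1. In simulated counts of 29724 genes that rule also called 1177 unchanged genes, so that many calls can arise without a difference.

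By that rule 1151 genes were higher in BCP+MSC+Treg (3.77% of those tested) and 637 were lower (2.08%). In 406 genes every BCP+MSC+Treg sample lay above every BCP sample (1.33%), and in 393 every one lay below (1.29%). Many calls were of rare transcripts: 501 of the higher genes and 338 of the lower genes averaged under 0.1 CPM, while 330 and 135 reached 1 CPM. Of the higher genes, 499 had their highest value in BCP+MSC+Treg replicate 1 and 441 in replicate 2. Of the lower genes, 306 had their highest value in BCP replicate 4. Among the calls at 1 CPM or more, 29 higher and 17 lower genes had groups that did not overlap. The numbers of calls moved with single samples: 643 genes were higher and 480 lower without BCP+MSC+Treg replicate 1, 740 and 383 without its replicate 2, 1763 and 1036 without its replicate 4, and 666 and 423 without BCP replicate 4. All of these counts but the 480 differed from the main count by more than 1.5 times.

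**Figure D1:**
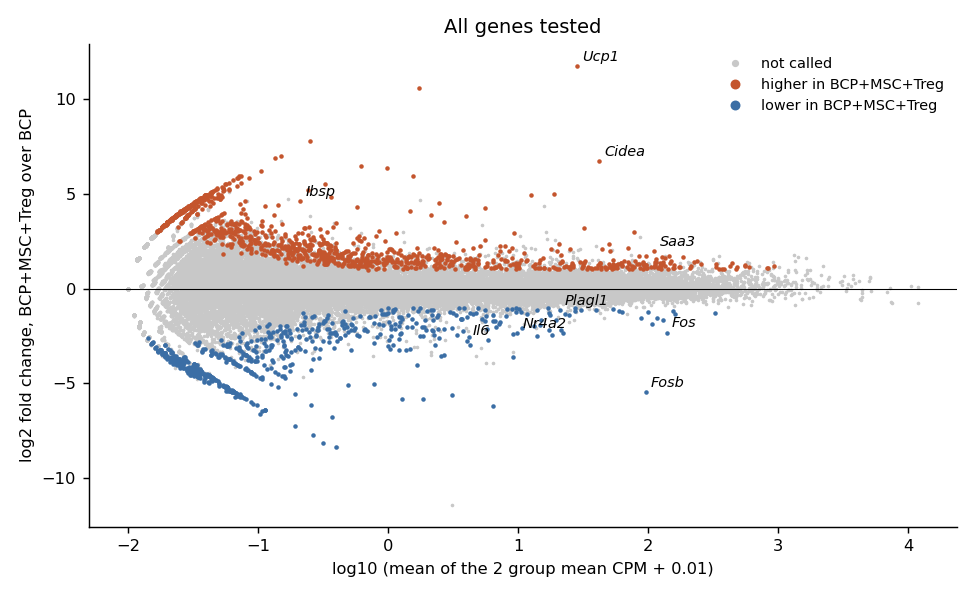
Log2 fold change of BCP+MSC+Treg over BCP (vertical axis) against the mean level (horizontal axis, log10 of the mean of the group mean CPM plus 0.01) for the 30564 genes tested. Genes called higher (1151, orange) and lower (637, blue) at an unadjusted p under 0.05 lie mostly at the low levels on the left. The named genes are among those called at higher levels, except Ibsp, which lies at a low level.

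Among the 27 gene lists, that of the immediate early genes had the most members called lower. These encode transcription factors and signal brakes that need no new protein to be transcribed and come on within minutes of a stimulus. Their promoters often bear the cAMP response element, whose core TGACG is bound by CREB. The 250 bases before the transcription start of 4 of them, taken from RefSeq on GRCm38.p6 and written 5′ to 3′ along the gene with this core, or its reverse complement CGTCA, in capitals, are shown because these genes carried the difference described next.
Fosb, 1 core, chr7:19310046-19310295, minus strand: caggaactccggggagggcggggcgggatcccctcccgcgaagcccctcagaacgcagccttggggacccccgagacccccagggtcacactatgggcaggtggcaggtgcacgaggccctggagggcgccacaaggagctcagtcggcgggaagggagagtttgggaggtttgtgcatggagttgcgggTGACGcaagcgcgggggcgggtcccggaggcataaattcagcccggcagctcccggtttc
Fos, 2 cores, chr12:85473640-85473889, plus strand: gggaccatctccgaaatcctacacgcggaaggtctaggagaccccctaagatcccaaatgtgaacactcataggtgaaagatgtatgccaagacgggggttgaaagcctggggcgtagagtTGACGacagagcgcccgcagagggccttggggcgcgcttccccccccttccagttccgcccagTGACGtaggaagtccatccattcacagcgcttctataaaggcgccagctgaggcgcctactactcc
Nr4a1, 4 cores, chr15:101266596-101266845, plus strand: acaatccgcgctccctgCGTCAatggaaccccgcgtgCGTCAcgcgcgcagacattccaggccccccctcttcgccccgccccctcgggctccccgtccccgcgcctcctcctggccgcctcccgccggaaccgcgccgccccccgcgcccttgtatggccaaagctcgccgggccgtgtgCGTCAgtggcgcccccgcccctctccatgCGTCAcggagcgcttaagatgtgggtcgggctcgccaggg
Nr4a2, 4 cores, chr2:57124004-57124253, minus strand: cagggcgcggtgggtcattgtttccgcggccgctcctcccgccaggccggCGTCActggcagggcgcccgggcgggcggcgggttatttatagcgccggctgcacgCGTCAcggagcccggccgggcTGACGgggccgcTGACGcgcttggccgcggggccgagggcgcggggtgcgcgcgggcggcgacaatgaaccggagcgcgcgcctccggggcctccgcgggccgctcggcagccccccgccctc

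These windows were rich in G and C, from 58.4% in Fos to 80% in Nr4a2. Of the 18 immediate early genes listed, 14 had such a window and 9 of the 14 held the core on either strand, while 17.8% of the 32851 windows of all genes held it. For each motif a listed gene was counted if any of its windows held the motif. The share of all windows counts each window singly, so that these are unlike measures and cannot be compared directly. The whole element TGACGTCA, which contains the core, was in 1 of the 14 (Dusp1) and 1.55% of all windows. The AP-1 site TGANTCA was in 0 of the 14 and 6.75% of all windows, and the CArG box of serum response factor in 2 of the 14 (Egr2 and Zfp36) and 1.47%. A match of letters is a description of the window and not a bound site.

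Fosb, an AP-1 subunit (ENSMUSG00000003545.3, chromosome 7 from 19302696 to 19310051 on GRCm38), was at 6.01, 8.99, 473 and 259 CPM in BCP replicates 1 to 4. In BCP+MSC+Treg replicates 1 to 4 it was at 4.07, 2.74, 4.74 and 5.59 CPM. The groups did not overlap, and BCP replicates 3 and 4 were far above all other samples, while BCP replicates 1 and 2 lay just above the highest BCP+MSC+Treg sample. The log2 fold change was -5.46 (SE 1.37, exact permutation test p = 0.0286, the smallest that the 70 arrangements of 4 against 4 can give). Without BCP replicates 3 and 4 it was -0.82.

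Fos, the founding AP-1 subunit (chromosome 12, 85473890 to 85477273), was at 41.6, 70.5, 642 and 170 CPM in BCP against 35.3, 48.0, 53.2 and 47.1 CPM in BCP+MSC+Treg. BCP replicates 3 and 4 again stood above the rest and the other 6 samples overlapped. The log2 fold change of Fos was -2.33 (SE 0.72, exact permutation p = 0.114), and -1.03 with BCP replicate 3 left out.

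The orphan nuclear receptors of the NR4A family, which act without a known ligand, showed the same arrangement. Nr4a2 (chromosome 2, 57106830 to 57124003) was at 3.97, 4.29, 28.3 and 29.3 CPM in BCP and 4.39, 2.35, 3.05 and 3.04 CPM in BCP+MSC+Treg. Nr4a1 (chromosome 15, 101266846 to 101274792) was at 27.8, 40.5, 385 and 213 CPM in BCP and 41.0, 56.9, 55.6 and 29.3 CPM in BCP+MSC+Treg. In both genes BCP replicates 3 and 4 were high and the remaining BCP samples lay within the range of BCP+MSC+Treg or close to it. The log2 fold changes were -2.36 for Nr4a2 (SE 0.54, exact permutation p = 0.0857) and -1.86 for Nr4a1 (SE 0.61, exact permutation p = 0.4). Nr4a3 was at 9.97, 10.9, 36.4 and 45.5 CPM in BCP and 7.01, 13.2, 9.86 and 8.38 CPM in BCP+MSC+Treg, a log2 fold change of -1.42 (SE 0.40, exact permutation p = 0.143). Without BCP replicates 3 and 4 the values were -0.36, 0.42 and -0.12 for Nr4a2, Nr4a1 and Nr4a3.

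Among the zinc finger factors of the EGR family, Egr3 was at 3.97, 3.00, 9.43 and 24.1 CPM in BCP and 0.539, 0.405, 1.56 and 3.95 CPM in BCP+MSC+Treg. Here all BCP samples but replicate 2 lay above the BCP+MSC+Treg samples, replicate 1 narrowly, and BCP+MSC+Treg replicate 4 was the highest of its group. The log2 fold change of Egr3 was -2.71 (SE 1.01, exact permutation p = 0.0571), and -1.83 without BCP replicate 4. Egr1 was at 45.2, 45.1, 561 and 146 CPM in BCP and 105, 59.1, 49.7 and 36.9 CPM in BCP+MSC+Treg (log2 fold change -1.67, SE 0.68, exact permutation p = 0.371). In Egr1 the difference rested on BCP replicate 3, and without that sample the log2 fold change was -0.33.

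Over the whole list of 18 immediate early genes, 0 were called higher and 7 lower (Fos, Fosb, Egr1, Egr3, Nr4a1, Nr4a2 and Nr4a3), and the median log2 fold change was -0.61, where it was 0.03 over all genes tested and 2.08% of them were called lower. Jund and Ier3 were the 2 members above 0. The mean log2 CPM of the list was 4.99, 5.43, 7.39 and 6.66 in BCP replicates 1 to 4 and 5.25, 5.60, 5.11 and 5.22 in BCP+MSC+Treg. BCP replicates 1 and 2 thus lay within or next to the range of BCP+MSC+Treg, and replicates 3 and 4 above it. Without those 2 samples 1 member was called higher and 0 lower, with a median of 0.36. Against BCP+MSC the median was 0.04 and no member was called. What set BCP replicates 3 and 4 apart was not tested.

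**Figure D2:**
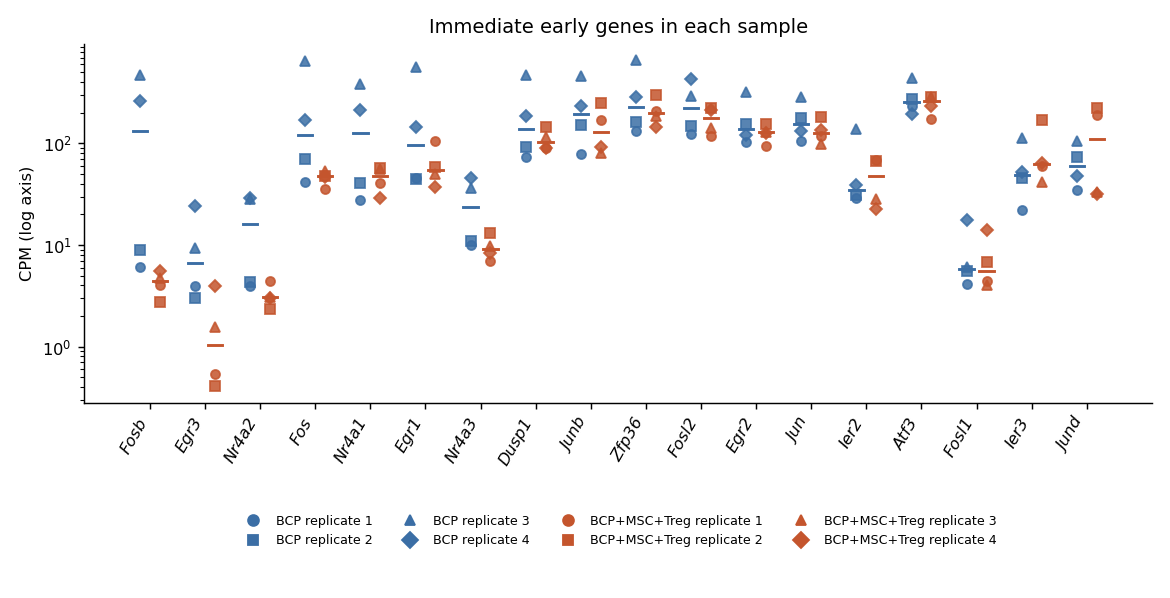
CPM (log axis) of the 18 immediate early genes in the 4 BCP (blue) and 4 BCP+MSC+Treg (orange) samples, with the replicate given by the marker and the median of each group by a line. In Fosb, Nr4a2, Fos, Nr4a1 and Nr4a3 the triangle and diamond of BCP replicates 3 and 4 stand above the 6 other samples.

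The arrangement with BCP replicates 3 and 4 above all 6 other samples was found in 9 of the 18 immediate early genes and in 3.60% of the 14653 genes that averaged at least 1 CPM. It was defined after being seen in those immediate early genes, so that these figures cannot be compared. It was found in 35 of the 135 lower genes at that level (25.9%). Those genes were called for higher values in BCP, which favours this arrangement, so that their share cannot be compared with that of all genes. These 35 also held cytokines, hyaluronan synthases and feedback regulators, and the following examples were chosen after their values were seen, except Il6, Cxcl1, Ereg and Has2.

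Il6, a cytokine of the acute response, was at 0.525, 0.749, 14.4 and 12.4 CPM in BCP and 0.893, 1.78, 0.925 and 0.493 CPM in BCP+MSC+Treg. The chemokine Cxcl1, which attracts neutrophils, was at 3.85, 4.68, 83.9 and 30.4 CPM in BCP and 7.89, 2.88, 4.81 and 6.99 CPM in BCP+MSC+Treg. In both genes BCP replicates 1 and 2 overlapped BCP+MSC+Treg. The log2 fold changes were -2.75 for Il6 (SE 0.84, exact permutation p = 0.371) and -2.45 for Cxcl1 (SE 0.84, exact permutation p = 0.343). Both turned without BCP replicates 3 and 4, to 0.69 and 0.40, and without BCP replicate 3 alone that of Cxcl1 was -1.20.

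Hyaluronan, the large matrix sugar of loose wound tissue, is made by 3 synthases, and 2 of them were called lower. Has1 was at 3.67, 3.78, 46.2 and 41.8 CPM in BCP and 6.33, 3.84, 3.73 and 2.55 CPM in BCP+MSC+Treg (log2 fold change -2.53, SE 0.76, exact permutation p = 0.286). Has2 was at 15.4, 12.1, 21.5 and 69.4 CPM in BCP and 7.62, 5.12, 9.93 and 15.5 CPM in BCP+MSC+Treg (log2 fold change -1.64, SE 0.61, exact permutation p = 0.0857). Has1 was high in BCP replicates 3 and 4 and overlapped in the rest, whereas Has2 was highest in BCP replicate 4 and overlapped only through BCP+MSC+Treg replicate 4. Without BCP replicates 3 and 4 the values were 0.15 for Has1 and -0.53 for Has2, and Has2 was at -0.78 without BCP replicate 4. Has2os overlaps Has2, and reads were counted without regard to strand.

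Epiregulin (Ereg), an EGF receptor ligand, was at 0.467, 0.877, 3.26 and 12.8 CPM in BCP and 0.867, 1.23, 1.02 and 0.740 CPM in BCP+MSC+Treg. Only BCP replicates 3 and 4 stood out, and the log2 fold change of -2.15 (SE 0.75, exact permutation p = 0.371) was -0.69 without BCP replicate 4 and 0.50 without both. Errfi1, which brakes the EGF receptor, was at 89.1, 111, 249 and 472 CPM in BCP and 51.9, 126, 66.3 and 124 CPM in BCP+MSC+Treg (-1.33, SE 0.44, exact permutation p = 0.171). The metalloprotease gene Adamts1 was at 42.0, 40.9, 102 and 107 CPM in BCP and 26.8, 28.6, 33.0 and 49.6 CPM in BCP+MSC+Treg (-1.08, SE 0.33, exact permutation p = 0.0857). Errfi1 was at -0.13 and Adamts1 at -0.27 without BCP replicates 3 and 4. Of the 13 genes of EGF ligands and receptors, 0 were called higher and Ereg alone was called lower, with a median of -0.02. Amphiregulin (Areg) spread from 0.164 to 20.9 CPM in BCP and from 0.164 to 21.3 CPM in BCP+MSC+Treg, and the groups overlapped fully (log2 fold change 0.11, SE 1.47).

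Of the 68 lower genes whose groups did not overlap, the rule named Fosb, Gabbr2, Egfl6, Plagl1, Col28a1, Ighv1-42, Ngfr, Megf6, Scube2 and Ighv1-22. The rule required groups that did not overlap, which fixes the exact permutation p at 0.0286. That p therefore adds nothing for any gene printed because its groups did not overlap.

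Plagl1, an imprinted zinc finger factor that restrains growth (ENSMUSG00000019817.18, chromosome 10, 13060504 to 13131694), was at 35.6, 25.7, 21.3 and 31.3 CPM in BCP and 13.8, 7.12, 11.8 and 19.5 CPM in BCP+MSC+Treg. The highest BCP+MSC+Treg sample, replicate 4, lay close under the lowest BCP sample, replicate 3. Its log2 fold change was -1.13 (SE 0.34), with a range of -1.39 to -0.93 when each sample was left out in turn, the smallest change being that without BCP+MSC+Treg replicate 2. Gm27741 overlaps Plagl1.

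Col28a1, a collagen found around peripheral nerve, was at 9.86, 7.89, 7.32 and 11.7 CPM in BCP and 2.39, 1.42, 5.59 and 4.52 CPM in BCP+MSC+Treg (log2 fold change -1.40, SE 0.44). Ngfr, the low affinity receptor of neurotrophins, was at 11.7, 12.5, 3.39 and 6.11 CPM in BCP and 3.32, 1.57, 3.35 and 2.06 CPM in BCP+MSC+Treg (-1.70, SE 0.55). In Ngfr the groups were parted only narrowly, by BCP replicate 3, whereas in Col28a1 BCP+MSC+Treg replicates 1 and 2 were well below all others. The call of both genes was kept in the 8 fits that left out 1 sample each. Of the 14 nerve and Schwann cell genes Ngfr was the only one called lower, S100b was called higher at 3.97, 3.31, 2.22 and 1.07 CPM in BCP against 13.2, 2.78, 2.90 and 2.71 CPM in BCP+MSC+Treg, and the median was -0.02. S100b was high in BCP+MSC+Treg replicate 1 alone, and its log2 fold change of 1.04 (SE 0.49) was 0.08 without that sample.

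Megf6, which encodes a protein with many EGF-like repeats, was at 9.91, 10.8, 13.0 and 11.2 CPM in BCP and 6.83, 3.53, 5.27 and 5.26 CPM in BCP+MSC+Treg (log2 fold change -1.10, SE 0.37). Egfl6, a secreted matrix protein with such repeats, was at 1.22, 0.859, 0.707 and 2.64 CPM in BCP and 0.158, 0.0324, 0.350 and 0.164 CPM in BCP+MSC+Treg (-2.89, SE 0.84). Megf6 varied little within BCP and stood apart from BCP+MSC+Treg by more than its spread there, whereas Egfl6 was highest in BCP replicate 4 and lowest in BCP+MSC+Treg replicate 2. Without BCP+MSC+Treg replicate 2 the log2 fold change of Megf6 was -0.95, and Gm13132 overlaps that gene. Scube2, which helps to release hedgehog ligands, was at 2.68, 1.35, 1.49 and 3.21 CPM in BCP and 0.158, 0.210, 0.687 and 1.23 CPM in BCP+MSC+Treg (-2.01, SE 0.72). Gabbr2, a subunit of the GABA-B receptor, was at 7.00, 1.28, 1.70 and 4.72 CPM in BCP and 1.04, 0.502, 0.953 and 0.493 CPM in BCP+MSC+Treg (-2.26, SE 0.60). In both Scube2 and Gabbr2 BCP replicates 1 and 4, which have the fewest counts of their group, were the highest samples. Without the 3 shallowest samples the log2 fold change of Gabbr2 was -0.81.

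Tnmd, a tendon and ligament membrane protein chosen after its values were seen, was at 2.45, 1.21, 2.69 and 10.4 CPM in BCP and 0.197, 0.583, 1.16 and 0.822 CPM in BCP+MSC+Treg. The groups did not overlap and BCP replicate 4 was far above the others. Its log2 fold change was -2.60 (SE 0.98, exact permutation p = 0.0286), and -1.62 without BCP replicate 4.

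The higher genes whose groups did not overlap were led by an acute phase protein. Here too the exact permutation p was fixed by that choice. Saa3, a serum amyloid A made in inflamed tissue (ENSMUSG00000040026.8, chromosome 7, 46711998 to 46715700), was at 44.2, 27.7, 69.6 and 40.2 CPM in BCP and 137, 373, 121 and 76.0 CPM in BCP+MSC+Treg. Its log2 fold change was 1.96 (SE 0.54, exact permutation p = 0.0286), and 1.29 to 2.24 when each sample was left out in turn, with p under 0.05 in 8 of 8 fits. In BCP+MSC it was at 96.3, 44.4, 203 and 59.0 CPM, a range that overlaps both groups.

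Trib3, a pseudokinase switched on by amino acid and endoplasmic reticulum stress, was at 2.86, 7.18, 7.11 and 6.74 CPM in BCP and 13.4, 34.1, 8.10 and 13.2 CPM in BCP+MSC+Treg. BCP+MSC+Treg replicate 2 was the highest and replicate 3 lay just above BCP. The log2 fold change was 1.52 (SE 0.52, exact permutation p = 0.0286), and 0.94 without BCP+MSC+Treg replicate 2. In BCP+MSC it was at 19.8, 8.29, 40.5 and 10.3 CPM, so that Trib3 did not differ by the test between the groups with MSC (-0.19, SE 0.51).

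The other genes of this kind were expressed at low levels. Mterf1b, a mitochondrial termination factor, was at 0.641, 1.13, 1.24 and 0.504 CPM in BCP and 2.46, 1.96, 1.39 and 1.73 CPM in BCP+MSC+Treg (log2 fold change 1.06, SE 0.34, exact permutation p = 0.0286). Its log2 fold change was 0.94, 0.89 and 0.91 without BCP replicate 1, BCP replicate 4 and BCP+MSC+Treg replicate 1. Mterf1b has a closely similar copy, and reads that map to both were not counted. Rapgef4, an exchange factor that responds to cAMP, was at 1.28, 0.804, 1.03 and 0.0629 CPM in BCP and 2.01, 1.83, 1.42 and 2.22 CPM in BCP+MSC+Treg (1.2, SE 0.48). In Rapgef4 BCP replicate 4 was far below the rest, and the log2 fold change was 0.85 without it. Mir339, whose precursor lies inside 3110082I17Rik, was at 0.292 to 0.420 CPM in BCP and 0.658 to 1.39 CPM in BCP+MSC+Treg (1.39, SE 0.43), and its reads cannot be told apart from those of its host. Otos was at 0.292 to 0.570 CPM in BCP and 0.631 to 1.81 CPM in BCP+MSC+Treg (1.45, SE 0.46). The log2 fold changes of Arhgdig, which overlaps Pdia2 and Rgs11, of Rps3a3, a ribosomal protein copy inside Pde4d, of Ssu2, and of Zfp652os, which lies opposite Zfp652, were 1.84, 1.28, 1.25 and 1.40. Of these 4, Arhgdig alone kept an unadjusted p under 0.05 in all 8 fits that left out a sample, while Rps3a3 lost it without BCP+MSC+Treg replicate 2 (1.01), Ssu2 without BCP replicate 2 (1.06), BCP replicate 4 (1.10) or BCP+MSC+Treg replicate 1 (1.13), and Zfp652os without BCP replicate 1 (1.18) or 4 (1.19). The mean of none of these genes exceeded 3 CPM in either group.

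**Figure D3:**
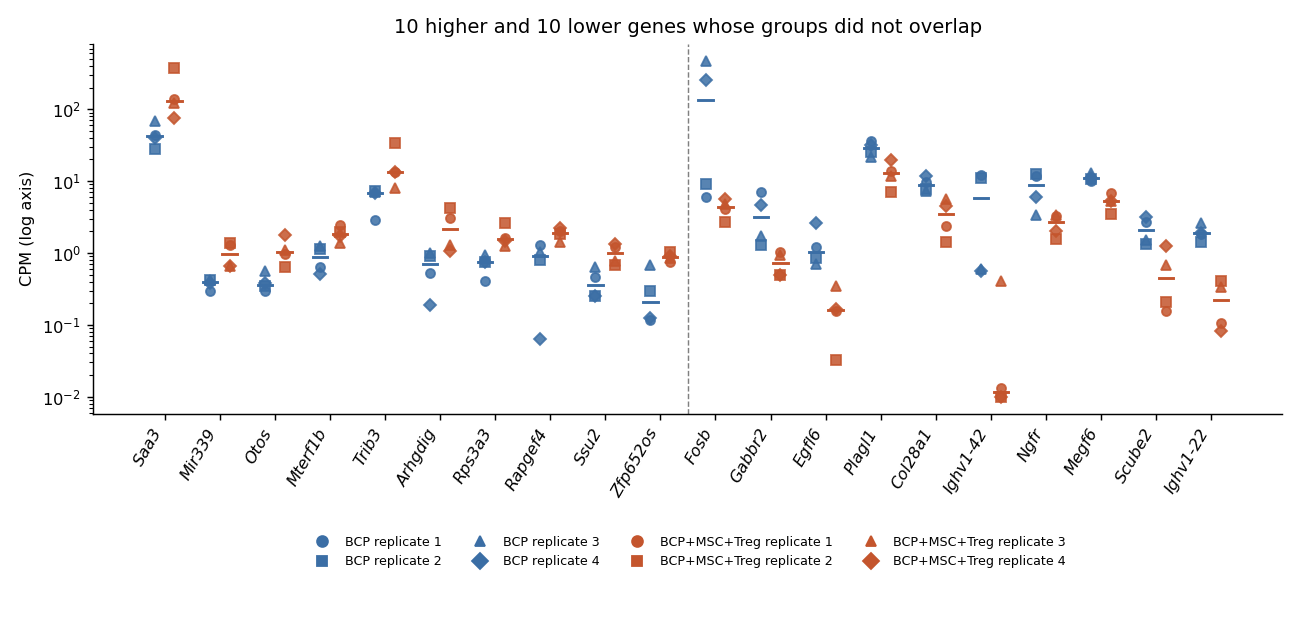
CPM (log axis, 0 drawn at 0.01) of the 10 higher (left of the dashed line) and 10 lower genes named by the rule, in the 4 BCP (blue) and 4 BCP+MSC+Treg (orange) samples, with a line at each group median. The groups do not overlap in any of the 20, which the rule required, and the distance between them is small in Trib3, Ngfr and Plagl1 and large for BCP replicates 3 and 4 in Fosb.

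Across the 27 marker and pathway lists, few members were called and the lists differed more in the direction of their medians. Over all genes tested 3.77% were called higher and 2.08% lower, the shares beside which each count below stands. Neutrophil, muscle, fat, cytotoxic, hypoxia and interferon genes lay above 0 and collagen, B cell and immediate early genes below it.

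**Figure D4:**
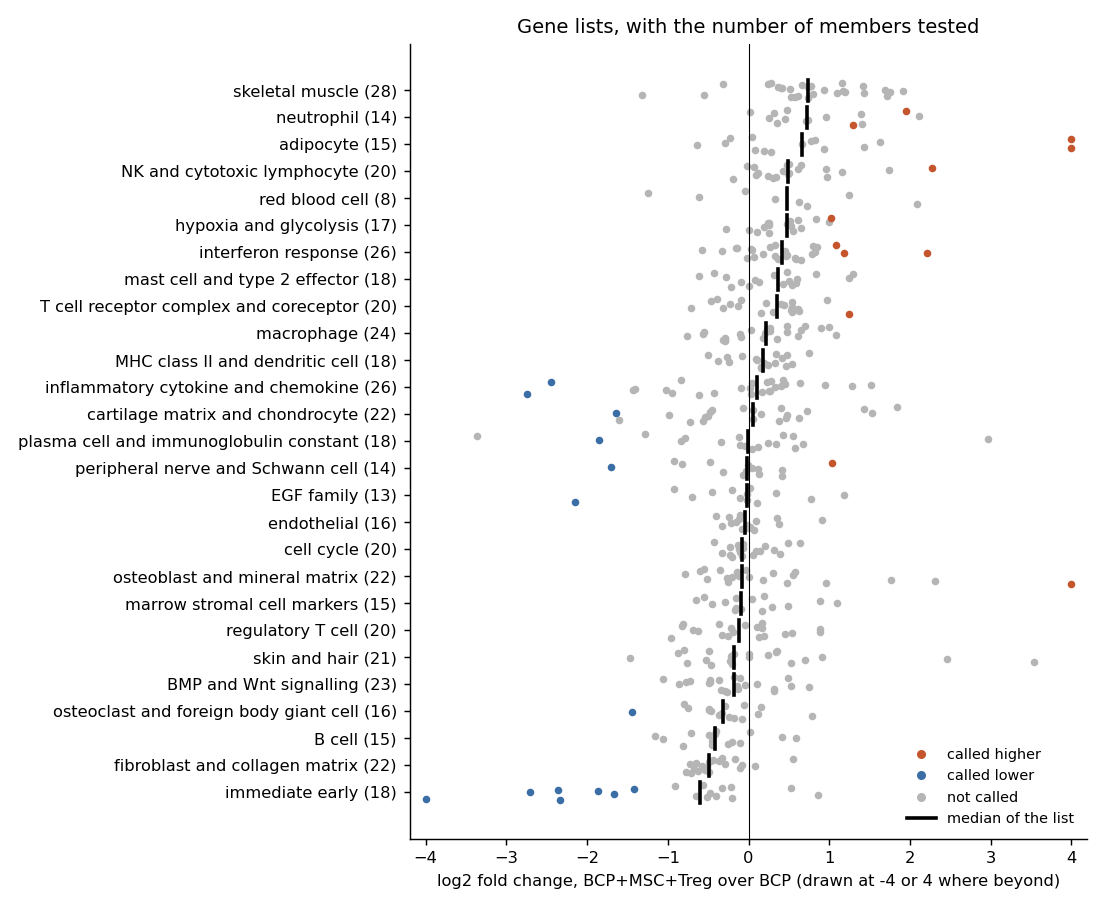
Log2 fold change of BCP+MSC+Treg over BCP of each tested member of 27 gene lists, ordered by the median (black bar), with the number of tested members in brackets. Members called higher are orange and members called lower blue, and the 7 blue points of the immediate early list are the most of any list.

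Genes of bone formation did not move together. Of 22 osteoblast and mineral matrix genes tested, 1 was called higher and 0 lower, with a median of -0.08. The 1 was Ibsp, bone sialoprotein, a matrix protein of mineralising cells, with 0, 0, 3 and 0 counts in BCP and 13, 6, 28 and 11 counts in BCP+MSC+Treg. Every BCP+MSC+Treg sample had more reads than any BCP sample, although at the edge of detection, and the ratio of the pooled counts per depth was 18.5 (95% interval 6.04 to 92.5, counting error only). In BCP+MSC it was at 0.546, 0.305, 0.497 and 15.4 CPM, and BCP+MSC replicate 4 was far above all other samples. Col1a1, the main bone and scar collagen, was at 6827, 8662, 9313 and 13224 CPM in BCP and 2404, 3437, 5643 and 10559 CPM in BCP+MSC+Treg (log2 fold change -0.79, SE 0.44, exact permutation p = 0.143), and at -1.32 without BCP+MSC+Treg replicate 4.

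Of 22 cartilage genes, Has2 alone was called lower, 0 were called higher, and the median was 0.06. Matn3, a cartilage matrilin, was at 0.126 to 0.641 CPM in BCP and 0.0647 to 0.247 CPM in BCP+MSC+Treg (log2 fold change -1.60, SE 0.83, exact permutation p = 0.114). The groups of Matn3 overlapped through BCP replicate 4, and without that sample its unadjusted p fell under 0.05, at -1.87. Scrg1, a gene of cartilage differentiation, was at 0.0583, 0, 0.289 and 0 CPM in BCP and 0.473, 0.129, 0.238 and 0.329 CPM in BCP+MSC+Treg. The groups overlapped through BCP replicate 3, and it was not called against BCP (1.43, SE 0.97, exact permutation p = 0.0857), while BCP+MSC was at 0 to 0.0818 CPM and the difference from it was 2.50 (SE 1.02, unadjusted edgeR p = 0.0218). None of the 23 genes of BMP and Wnt signalling was called, with 17 of them below 0 and a median of -0.18.

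Of 16 osteoclast and giant cell genes, Tnfsf11 (RANKL, the signal that drives osteoclast formation) was called lower, 0 were called higher, and the median was -0.31 with 13 below 0. Tnfsf11 was at 18.6, 2.06, 4.59 and 8.06 CPM in BCP and 2.86, 3.66, 2.68 and 2.96 CPM in BCP+MSC+Treg. The groups overlapped through BCP replicate 2, and the log2 fold change of -1.44 (SE 0.56, exact permutation p = 0.229) rested on BCP replicate 1, without which it was -0.69.

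Among 15 marrow stromal markers 0 were called and the median was -0.10, and in 3 of them the groups did not overlap, 1 above and 2 below, where 1.33% and 1.29% of all genes did so. Ly6a (Sca-1) was at 139, 140, 143 and 160 CPM in BCP and 291, 178, 182 and 162 CPM in BCP+MSC+Treg (log2 fold change 0.48, SE 0.25). Vcam1, an adhesion receptor, was at 50.6, 52.4, 64.7 and 67.2 CPM in BCP and 37.6, 35.6, 48.4 and 49.7 CPM in BCP+MSC+Treg (-0.46, SE 0.23). The stromal transcription factor Ebf3 was at 16.4, 15.2, 15.4 and 19.3 CPM in BCP and 11.1, 6.31, 10.5 and 14.3 CPM in BCP+MSC+Treg (-0.66, SE 0.31). All 3 differences were under 2-fold, with an exact permutation p = 0.0286 each. Gm43109 overlaps Vcam1, and Gm45278 and Gm10578 overlap Ebf3.

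Of 22 fibroblast and collagen matrix genes 0 were called in either direction, 20 were below 0, and the median was -0.49. Without BCP+MSC+Treg replicate 4, 3 of them were called lower, and without its replicate 1 the median was -0.31. The mean log2 CPM of this list was 8.81, 8.89, 8.90 and 9.27 in BCP and 7.90, 8.19, 8.71 and 9.09 in BCP+MSC+Treg. BCP+MSC+Treg replicates 1 to 3 were below every BCP sample, replicate 3 narrowly, while replicate 4 was within the BCP range. Col1a2, the partner chain of Col1a1, was at 6772, 8296, 9287 and 12054 CPM in BCP and 2505, 3429, 6219 and 9961 CPM in BCP+MSC+Treg (log2 fold change -0.72, SE 0.43, exact permutation p = 0.143).

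Over the 44 collagen genes of all types, 37 were below 0, the median was -0.53, and Col28a1 and Col8a2 were called lower with 0 called higher. Of all genes 2.08% were called lower and 3.77% higher. Col8a2, a short network-forming collagen, was at 23.1, 18.8, 25.0 and 24.0 CPM in BCP and 8.58, 3.93, 13.1 and 19.4 CPM in BCP+MSC+Treg. Only BCP+MSC+Treg replicate 4 reached the BCP range, and the log2 fold change was -1.02 (SE 0.42, exact permutation p = 0.0571), or -0.74 without BCP+MSC+Treg replicate 2. Without BCP+MSC+Treg replicate 4, which has the fewest counts of its group, 7 collagens were called lower.

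All 14 neutrophil genes tested lay above 0, with a median of 0.73 against 0.03 over all genes. Of the 14, 2 were called higher, where 3.77% of all genes were. The mean log2 CPM of the list was 1.97, 1.79, 2.90 and 1.00 in BCP and 3.39, 3.77, 2.73 and 1.64 in BCP+MSC+Treg, so that the groups overlapped through BCP replicate 3 and BCP+MSC+Treg replicate 4. Stfa2l1, a stefin of neutrophils, was at 2.86, 2.54, 4.70 and 1.64 CPM in BCP and 11.2, 24.3, 6.78 and 3.53 CPM in BCP+MSC+Treg (log2 fold change 1.96, SE 0.81, exact permutation p = 0.0571). S100a8, a subunit of calprotectin, was at 69.6, 28.3, 75.4 and 38.8 CPM in BCP and 139, 231, 111 and 36.3 CPM in BCP+MSC+Treg (1.29, SE 0.60, exact permutation p = 0.171). The chemokine receptor Cxcr2, chosen after its values were seen, was at 28, 20.7, 24.9 and 20.0 CPM in BCP and 34.9, 46.7, 43.8 and 28.2 CPM in BCP+MSC+Treg. Cxcr2 did not overlap between the groups (0.72, SE 0.57, exact permutation p = 0.0286). The calls of the list rested on few samples: without BCP+MSC+Treg replicate 2, or BCP replicate 2 or 4, 0 members were called, and without BCP+MSC+Treg replicate 4 there were 4. With the muscle covariate 0 were called as well, and without BCP replicate 3 the median was 1.5 with 3 called.

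Of 20 genes of natural killer (NK) and cytotoxic lymphocytes, 18 lay above 0 with a median of 0.49. In the list 1 gene was called higher, where 3.77% of all genes were. That gene was Ifng, interferon gamma, at 0.0583, 0.201, 0.0402 and 0 CPM in BCP and 0.998, 0.324, 0.112 and 0.164 CPM in BCP+MSC+Treg. BCP replicate 2 overlapped BCP+MSC+Treg, the log2 fold change was 2.27 (SE 1.01, exact permutation p = 0.0857), and without BCP+MSC+Treg replicate 1 it was 1.26. Its p was under 0.05 in 4 of the 8 fits that left out a sample and was lost without BCP replicate 1, 3 or 4 or BCP+MSC+Treg replicate 1. The list had 0 calls without BCP replicate 4 (median 0.31) or BCP+MSC+Treg replicate 1 (median 0.31), and its median was also 0.31 without BCP replicate 1. Klrd1 (CD94), an NK receptor chain, was at 2.74, 2.08, 3.12 and 1.01 CPM in BCP and 4.48, 4.92, 4.74 and 3.53 CPM in BCP+MSC+Treg. Prf1 (perforin) was at 1.11, 3.02, 2.98 and 2.14 CPM in BCP and 5.37, 3.95, 3.67 and 5.26 CPM in BCP+MSC+Treg. In both genes every BCP+MSC+Treg sample lay above every BCP sample, with log2 fold changes of 0.97 (SE 0.40) for Klrd1 and 0.97 (SE 0.55) for Prf1 and an exact permutation p = 0.0286 each. Of all genes tested 1.33% lay so. Prf1 was at 1.57 to 5.79 CPM in BCP+MSC, and Klrd1 at 2.52 to 4.25 CPM.

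Of 26 genes induced by interferon, 21 lay above 0, and the median was 0.41. Of them 3 were called higher and 0 lower, where 3.77% of all genes were called higher and 2.08% lower. Cxcl11, a chemokine gene (ENSMUSG00000060183.6, chromosome 5, 92359544 to 92365485), was at 0.0583, 0.0914, 0.0964 and 0 CPM in BCP and 0.460, 0.486, 0.210 and 0.164 CPM in BCP+MSC+Treg. Its groups did not overlap (log2 fold change 2.21, SE 0.74, exact permutation p = 0.0286), the call held in all 8 fits that left out a sample, and BCP+MSC was at 0.0497 to 0.168 CPM. These values are at the edge of detection, with 0 to 12 counts in BCP and 2 to 35 in BCP+MSC+Treg. The 2 counts were those of BCP+MSC+Treg replicate 4, so that the groups were parted by few reads. Art3 and Gm2673 overlap Cxcl11.

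Cxcl10, a ligand of the chemokine receptor CXCR3, was at 6.41, 4.42, 5.29 and 8.5 CPM in BCP and 23.5, 19.0, 7.93 and 4.93 CPM in BCP+MSC+Treg (log2 fold change 1.18, SE 0.50, exact permutation p = 0.2). Psmb9, an immunoproteasome subunit, was at 31.7, 28.5, 39.2 and 24.7 CPM in BCP and 120, 79.3, 38.7 and 23.9 CPM in BCP+MSC+Treg (1.08, SE 0.47, exact permutation p = 0.257). In both genes BCP+MSC+Treg replicates 1 and 2 were high, and replicate 4 lay in the BCP range for Cxcl10 and just under it for Psmb9. Without BCP+MSC+Treg replicate 1 the log2 fold changes were 0.80 and 0.61, 1 interferon gene was called, and the median of the list was -0.01. The list also held 1 call without BCP replicate 2 or BCP+MSC+Treg replicate 2. Art3 overlaps Cxcl10 and Tap1 overlaps Psmb9. Of the 40 proteasome subunits, 37 lay above 0, and the median was 0.38. Psmb9 was the only one called, where 3.77% of all genes were called higher.

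T cell genes were mixed. Of 20 genes of the T cell receptor complex and its partners, Cd3d was called higher, 0 were called lower, and the median was 0.36. Cd3d was at 2.57, 2.85, 3.73 and 0.944 CPM in BCP and 9.09, 9.74, 3.98 and 1.32 CPM in BCP+MSC+Treg (log2 fold change 1.25, SE 0.59, exact permutation p = 0.2). It was high in BCP+MSC+Treg replicates 1 and 2, just above the highest BCP sample in replicate 3, and within the BCP range in replicate 4. Its call was lost in 5 of the 8 fits that left out a sample, with 0.93 without BCP+MSC+Treg replicate 2, and with the muscle covariate (0.93). The coreceptor Cd4 was at 12.8, 17.3, 7.57 and 9.82 CPM in BCP and 8.08, 9.00, 5.97 and 5.92 CPM in BCP+MSC+Treg (-0.71, SE 0.30, exact permutation p = 0.0857).

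Markers of Treg were not higher at week 2 in the constructs that had been given Treg. Of 20 Treg genes 0 were called, 11 were below 0, and the median was -0.12. Foxp3, which defines these cells, was at 1.28, 0.914, 1.27 and 2.14 CPM in BCP and 0.420, 0.356, 0.729 and 1.48 CPM in BCP+MSC+Treg. It was detected in all 8 samples and replicate 4 was the highest of each group (log2 fold change -0.96, SE 0.51, exact permutation p = 0.114), and without BCP+MSC+Treg replicate 4 its log2 fold change was -1.47 with an unadjusted p under 0.05. Gm36995, Flicr and Ccdc22 overlap Foxp3. Lrrc32 (GARP), which holds latent TGF-β on Treg and also on endothelium, was at 86.7, 134, 151 and 126 CPM in BCP and 57.1, 78.0, 74.5 and 100 CPM in BCP+MSC+Treg (-0.69, SE 0.26, exact permutation p = 0.0571).

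Of 24 macrophage genes 0 were called, with a median of 0.22 and 15 above 0. Cd163, a scavenger receptor of tissue macrophages, was at 37.0, 68.8, 109 and 72.1 CPM in BCP and 56.2, 196, 77.2 and 278 CPM in BCP+MSC+Treg, high in BCP+MSC+Treg replicates 2 and 4 (log2 fold change 1.08, SE 0.56, exact permutation p = 0.229). Its unadjusted p was under 0.05 in 3 of the 8 fits that left out a sample, without BCP replicate 3 (1.35) or BCP+MSC+Treg replicate 1 (1.35) or 3 (1.30). Cd300c, an activating receptor of myeloid cells, was at 0.700, 0.566, 0.964 and 0.504 CPM in BCP and 1.23, 2.96, 1.09 and 0.986 CPM in BCP+MSC+Treg. Its groups did not overlap, and it was called higher (1.19, SE 0.53, exact permutation p = 0.0286), but its p was under 0.05 in only 4 of the 8 fits that left out a sample, being lost without BCP replicate 1, 2 or 4 or BCP+MSC+Treg replicate 2, where the log2 fold change was 0.68.

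Of 26 inflammatory cytokine and chemokine genes, Il6 and Cxcl1 were called lower and 0 higher, with a median of 0.10. Ccl4, a chemokine of macrophages and NK cells, was at 18.5, 20.9, 42.5 and 18.8 CPM in BCP and 65.0, 112, 47.8 and 21.1 CPM in BCP+MSC+Treg (log2 fold change 1.29, SE 0.64, exact permutation p = 0.0571). It overlapped through BCP replicate 3, without which its unadjusted p was under 0.05 at 1.67. Ccr6, a receptor of lymphocytes and dendritic cells, was at 0.175 to 0.466 CPM in BCP and 0.0486 to 0.247 CPM in BCP+MSC+Treg (-1.91, SE 1.05, exact permutation p = 0.0571). The type 2 cytokine Il4 was at 2.62 to 7.52 CPM in BCP and 2.79 to 10.2 CPM in BCP+MSC+Treg (0.07, SE 0.45), and Il13 at 0.408 to 4.96 CPM and 1.95 to 8.5 CPM (0.61, SE 0.87). Of 18 mast cell and type 2 genes and of 18 genes of MHC class II and dendritic cells 0 were called, with medians of 0.37 and 0.17.

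Of 15 B cell genes 0 were called, 12 lay below 0, and the median was -0.42. That median was -0.095 without BCP replicate 3, with 7 genes above 0, and -0.76 without BCP+MSC+Treg replicate 2. Of 18 plasma cell and immunoglobulin constant genes, Ighg2c was called lower and 0 higher, with a median of -0.00. Ighg2c, the constant region of an antibody class favoured by interferon gamma in C57BL/6 mice, was at 12.9, 6.40, 13.5 and 11.9 CPM in BCP and 3.80, 3.30, 4.25 and 0.740 CPM in BCP+MSC+Treg. Its groups did not overlap, with a log2 fold change of -1.86 (SE 0.72, exact permutation p = 0.0286), and -1.57 with an unadjusted p over 0.05 without BCP+MSC+Treg replicate 4. In BCP+MSC it was at 1.01 to 4.8 CPM.

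Of the 109 heavy chain variable segments tested, 16 were called lower and 3 higher, with a median of -0.98, and of the 101 kappa segments 13 were lower and 3 higher, with a median of -0.88, where 2.08% of all genes were called lower and 3.77% higher. The summed level of the heavy segments was 52.3 to 208 CPM in BCP and 14.4 to 153 CPM in BCP+MSC+Treg, and that of the kappa segments was 105 to 647 CPM and 95.6 to 519 CPM, so that both sums overlapped. Ighv1-42 was at 12.1, 11.0, 0.594 and 0.567 CPM in BCP and 0.0131, 0, 0.406 and 0 CPM in BCP+MSC+Treg. Ighv1-22 was at 1.87, 1.41, 2.60 and 1.89 CPM in BCP and 0.105, 0.405, 0.336 and 0.0822 CPM in BCP+MSC+Treg (log2 fold change -2.97, SE 1.06). Both were parted between the groups, Ighv1-42 with high values in BCP replicates 1 and 2 only. Reads that map to several near-identical segments were not counted, so that single segments are uncertain. Without BCP replicate 3 the medians were -0.23 for heavy and 0.00 for kappa segments.

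Of the 10 gene families, that of mitochondrial respiration had the most called members. Of 89 nuclear genes of the respiratory chain and ATP synthase tested, all 89 lay above 0 and 53 were called higher, where 3.77% of all genes were called higher, and the median was 1.16. The mean log2 CPM of the set was 5.35, 5.82, 6.12 and 4.87 in BCP and 7.49, 6.97, 6.46 and 4.97 in BCP+MSC+Treg. BCP+MSC+Treg replicates 1 to 3 lay above every BCP sample, while its replicate 4 was among the lowest of the 8.

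Cox7c, a small subunit of cytochrome c oxidase, was at 51.4, 72.9, 107 and 42.3 CPM in BCP and 401, 305, 136 and 44.3 CPM in BCP+MSC+Treg (log2 fold change 1.70, SE 0.61, exact permutation p = 0.143). Atp5e, the epsilon subunit of ATP synthase, was at 80.1, 89.4, 144 and 40.9 CPM in BCP and 449, 442, 184 and 51.1 CPM in BCP+MSC+Treg (1.67, SE 0.72, exact permutation p = 0.171). Cox8b, a subunit form of heart, muscle and brown fat, was at 8.63, 31.0, 25.5 and 4.53 CPM in BCP and 371, 108, 70.7 and 7.32 CPM in BCP+MSC+Treg (2.99, SE 1.04, exact permutation p = 0.143). In the 3 genes, chosen after their values were seen, BCP+MSC+Treg replicates 1 to 3 lay above BCP and replicate 4 within it.

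The call of this set rested on few samples and moved with several other measures. Without BCP+MSC+Treg replicate 1, 2 of its genes were called (median 0.80), without BCP replicate 4, 23 (median 0.98), and with the skeletal muscle level as a covariate, 14 (median 0.84). Skeletal muscle genes are rich in mitochondria: of 28 tested 0 were called, 25 lay above 0, and the median was 0.74, with levels of 5.03, 6.81, 6.60 and 4.2 in BCP and 6.69, 7.29, 7.24 and 4.42 in BCP+MSC+Treg. From the mitochondrial genome, 9 of 30 genes were called higher and 0 lower, where 3.77% of all genes were called higher, with a median of 1.02. The 30 were taken by their mt- symbol, whether or not they encode a protein of the respiratory chain. The summed level of the 30 genes was 12053 to 22273.9 CPM in BCP and 13102 to 30008.5 CPM in BCP+MSC+Treg, so that the sums overlapped. Among the 9 called was mt-Nd6, chosen after its values were seen, which overlaps mt-Nd5, at 364, 651, 830 and 272 CPM in BCP and 1640, 1389, 1081 and 349 CPM in BCP+MSC+Treg (1.07, SE 0.46, exact permutation p = 0.171).

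Short transcripts had higher log2 fold changes than long ones. Among genes of at least 1 CPM, the median log2 fold change was 0.68 for the 750 genes with under 1000 exonic bases, 0.23 for 1000 to 3000 bases, -0.05 for 3000 to 6000 bases and -0.19 for longer genes, and 150, 132, 36 and 12 genes of these classes were called higher. The median log2 deviation of the genes under 1000 bases was -0.44, -0.22, 0.20 and -0.74 in BCP and 0.78, 0.84, 0.21 and -0.60 in BCP+MSC+Treg. BCP+MSC+Treg replicates 1 and 2 were above all other samples, replicate 3 was level with BCP replicate 3, and replicate 4 lay within the BCP range. Respiratory genes under 1000 bases were called in 19 of 26 cases, with a median of 1.29, against 18.1% of other genes of that length, with a median of 0.64. Between 1000 and 3000 bases they were called in 25 of 41 cases, with a median of 1.15, against 2.48% and 0.22. The 82 ribosomal protein genes, which are also short, had a median of 0.75, with 81 above 0 and 8 called higher. Those under 1000 bases had a median of 0.81 against 0.66 in other genes of that length, with 2 of 19 called against 20.2%, and those of 1000 to 3000 bases had 0.74 against 0.22, with 5 of 48 called against 2.95%. Rps21, for example, was at 160, 174, 302 and 132 CPM in BCP and 628, 847, 296 and 138 CPM in BCP+MSC+Treg, high in BCP+MSC+Treg replicates 1 and 2 (1.31, SE 0.62, exact permutation p = 0.2). The adipocyte list was also highest in BCP+MSC+Treg replicate 1, at a mean log2 CPM of 9.11 against 5.23 to 6.34 in the other BCP+MSC+Treg samples. That sample alone was high in the brown fat genes Ucp1 and Cidea, as given below. The part of muscle content, of fat content and of transcript length in these differences was not tested beyond these values.

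**Figure D5:**
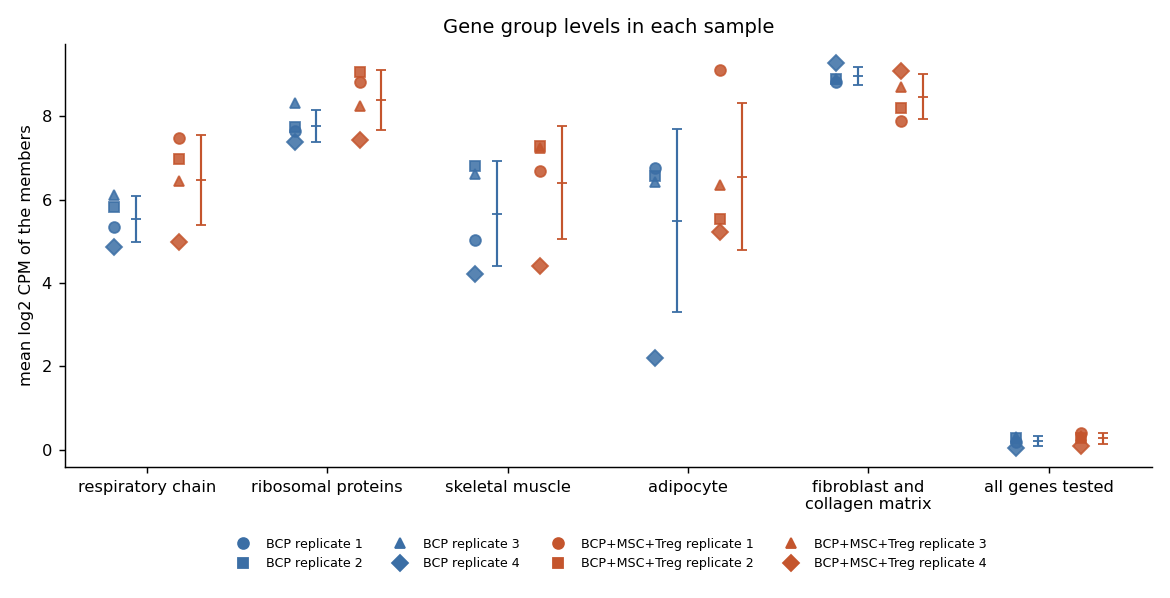
Mean log2 CPM of the tested members of 5 gene groups and of all genes tested in each of the 4 BCP (blue) and 4 BCP+MSC+Treg (orange) samples, with the mean and SD of each group of 4 beside the points. Respiratory chain genes are highest in BCP+MSC+Treg replicates 1 to 3 (7.49, 6.97 and 6.46), the adipocyte genes spread most, and the collagen matrix genes are lowest in BCP+MSC+Treg replicates 1 and 2.

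Of 17 genes of hypoxia and glycolysis, 16 were above 0, 1 was called higher, and the median was 0.47. Bnip3, a mitophagy receptor induced by low oxygen (ENSMUSG00000078566.8, chromosome 7, 138890836 to 138909519), was at 32.8, 70.2, 52.0 and 56.0 CPM in BCP and 104, 142, 78.9 and 96.6 CPM in BCP+MSC+Treg. Its groups did not overlap and its log2 fold change of 1.00 (SE 0.28, exact permutation p = 0.0286) fell just short of the threshold for a call, with p under 0.05 in 8 of 8 fits that left out a sample. Higd1a, a hypoxia-induced protein of the inner mitochondrial membrane, was at 39.2, 49.2, 58.1 and 41.0 CPM in BCP and 116, 149, 68.7 and 45.8 CPM in BCP+MSC+Treg (1.02, SE 0.37, exact permutation p = 0.0857), and at 0.71 without BCP+MSC+Treg replicate 2. In BCP+MSC, Bnip3 was at 49.9 to 114 CPM. Gm45507 and Gm18258 overlap Bnip3, and Gm47112 overlaps Higd1a.

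Of 15 adipocyte genes 2 were called higher, Ucp1 and Cidea, which mark brown fat, and both were high in BCP+MSC+Treg replicate 1 alone. Of all genes 3.77% were called higher. Ucp1, the uncoupling protein of heat production, had 1, 0, 2 and 0 counts in BCP and 17159, 3, 10 and 3 counts in BCP+MSC+Treg, and Cidea was at 0.408, 1.90, 0.522 and 0 CPM in BCP and 331, 0.987, 1.44 and 0.0822 CPM in BCP+MSC+Treg. Without BCP+MSC+Treg replicate 1, 0 adipocyte genes were called and the median of the list turned from 0.66 to -0.51. The list was also lowest in BCP replicate 4, at a mean log2 CPM of 2.21 against 6.42 to 6.76 in the other BCP samples.

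Hox genes, which keep the positional identity of stromal cells, were called higher in 6 of 34 cases and lower in 2 (Hoxb3 and Hoxb1), where 3.77% of all genes were called higher and 2.08% lower, with a median of 0.41. The 6 were Hoxa2, Hoxa4, Hoxa5, Hoxa7, Hoxb7 and Hoxb8. Hoxa5 was at 1.28, 2.56, 2.95 and 1.2 CPM in BCP and 15.1, 3.98, 4.05 and 0.575 CPM in BCP+MSC+Treg (log2 fold change 1.56, SE 0.65, exact permutation p = 0.457), and at 0.53 without BCP+MSC+Treg replicate 1. Hoxb7 was at 2.22, 3.53, 3.32 and 1.89 CPM in BCP and 9.47, 11.5, 4.95 and 1.97 CPM in BCP+MSC+Treg (1.35, SE 0.48, exact permutation p = 0.143). Both genes, chosen after their values were seen, were high in BCP+MSC+Treg replicates 1 to 3 or in part of them, and replicate 4 lay within the BCP range or below it. Gm28308, Hoxa3 and Hoxaas3 overlap Hoxa5.

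The remaining lists showed little. Of 16 endothelial, 21 skin and hair, 8 red blood cell and 20 cell cycle genes 0 were called, with medians of -0.04, -0.17, 0.48 and -0.08. Keratins were called higher in 3 of 43 cases, Krt13, Krt31 and Krt81, each at 0 in all BCP samples and highest at 0.105 CPM, in BCP+MSC+Treg replicate 1 for Krt31. Of all genes 3.77% were called higher. The keratin family as a whole had a median of 0.53.

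Set against BCP+MSC, which shares the MSC but not the Treg, 378 genes were higher in BCP+MSC+Treg (1.24%) and 405 lower (1.33%), with 0 past an adjusted p under 0.05 by edgeR and 0 or 1 by DESeq2. Both comparisons use the same BCP+MSC+Treg samples, so that the values are given side by side and their overlap is not read as a result. Cxcl11 was at 2.21 against BCP and 1.62 against BCP+MSC (SE 0.74 and 0.70), S100a8 at 1.29 and 1.40 (SE 0.60 and 0.60), and Mterf1b at 1.06 and 0.71 (SE 0.34 and 0.34), each with an unadjusted p under 0.05 in both. Ibsp went opposite ways, with more reads than in BCP but a log2 fold change of -3.59 (SE 1.2) against BCP+MSC, where replicate 4 was at 15.4 CPM, and was the 1 gene called higher than BCP and lower than BCP+MSC. Saa3 was at 1.96 and 0.81 (SE 0.54 and 0.52), Fosb at -5.46 and -1.93 (SE 1.37 and 1.18), Plagl1 at -1.13 and -0.58 (SE 0.34 and 0.33) and Col28a1 at -1.40 and -0.55 (SE 0.44 and 0.43), without a p under 0.05 against BCP+MSC. Trib3, Ngfr, Megf6 and Bnip3 stood at -0.19, 0.10, -0.16 and 0.38 against BCP+MSC. Nr4a2 was at 3.79, 5.57, 2.95 and 4.23 CPM in BCP+MSC, within or near the range of BCP+MSC+Treg and far under BCP replicates 3 and 4. The respiratory set had a median of 0.53 against BCP+MSC with 1 gene called higher, the neutrophil list 0.82 with 2, and the collagen matrix list -0.34 with 0.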

How the data were processed

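RNA was sequenced from whole constructs of 24 animals, 1 sample per animal, of which 4 BCP and 4 BCP+MSC+Treg samples are described and 4 BCP+MSC samples are set beside them. The deposited values are raw counts per gene, which the authors made with HISAT2 2.0.5 and featureCounts 1.5.2 on GRCm38 with GENCODE annotation, without use of strand and without reads that map to several places, and the authors tested them with DESeq2. Symbols were found for 50376 of 51138 identifiers. Genes whose counts summed to 10 or more across the 24 samples were scaled by TMM and tested with edgeR 4.0.16 (quasi-likelihood, R 4.3.3, limma 3.58.1) in a fit to all groups, with p-values adjusted by Benjamini-Hochberg over all genes, after the code had been tested on simulated data. In those simulated data the unadjusted rule called 184 of 200 genes changed 4-fold and 1177 unchanged genes. Single genes were also compared by a two-sided exact permutation test of log2 CPM (prior count 2). Its p was fixed at 0.0286 for genes chosen because their groups did not overlap, and is no support for them. DESeq2 1.42.0, other scalings and filters, a fit to the 2 groups alone, a replicate block, sex and muscle covariates and fits without single samples were the alternatives. Tables and plots were made with Python 3.11.15, numpy 2.4.6, pandas 2.3.3 and matplotlib 3.10.9.

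Named genes were (a) the 10 higher and 10 lower genes of smallest p with a log2 fold change above 1 in size, a mean of at least 0.5 CPM and groups that did not overlap, (b) members of 27 gene lists, of which values are printed where they were called or did not overlap, a choice made after their values were seen, and (c) a fixed set of genes the study names. Unnamed clone and model genes were left out of (a). The 10 gene families, and single genes marked in the text, were added after values were seen. The groups, lists and rules were all chosen with earlier results of these data known. Intervals of counts cover counting error only. Promoter sequences are those of RefSeq on GRCm38.p6.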

Additional observations from a re-analysis of the deposited data

Results flagged for a closer look

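In 228 groups of 4 samples, a single sample stood apart from the other 3 by more than Dixon's 95% critical value in 11, where chance alone gives about 1 in 20. On the log2 CPM scale these were the lowest value of Trib3 in BCP replicate 1 (1.53), the highest of Ibsp and of Ccl4 in BCP replicate 3 (-4.04 and 5.41), the highest of Ucp1 and of S100b in BCP+MSC+Treg replicate 1 (7.82 and 3.73), the highest of Ighv1-42 in BCP+MSC+Treg replicate 3 (-1.18) and the lowest of Ighg2c in BCP+MSC+Treg replicate 4 (-0.37). Among list means on the same scale, the B cell genes were highest in BCP+MSC+Treg replicate 2 (1.41), the EGF family and the keratins were highest in BCP replicate 1 (2.06 and -1.12), and the adipocyte genes were lowest in BCP replicate 4 (2.21).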

How the results depend on the processing

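Against BCP, 1151 genes were higher and 637 lower. The higher count was 688 with the edgeR filter by expression, 744 with the muscle covariate, 703 without BCP replicates 3 and 4, and 716 without the 3 shallowest samples, the last 2 being alternatives chosen after seeing the data. The lower count was 288 with that filter and 352 without the 3 shallowest samples. Leaving out 1 sample gave 643 to 1763 higher and 383 to 1036 lower genes. DESeq2 passed 3 genes at the adjusted threshold over all samples and 7 over the 2 groups. Against BCP+MSC (378 and 405), DESeq2 gave 207 and 135 over all samples and 191 and 155 over the 2 groups, the filter 105 and 77, edgeR on the 2 groups 256 lower, and leaving out 1 sample 269 to 459 lower. With the replicate block, 872 genes were higher and 411 lower than BCP, and 216 and 268 than BCP+MSC. Same-numbered BCP and BCP+MSC+Treg samples correlated at 0.464, -0.0323, 0.202 and 0.578, and since 1 pair lay under 0.1 the numbers were not taken as a pairing. Samples 1 and 4 correlated best with their own number. With the block the calls of Cd3d (1.27) and Cd300c (1.13) had an unadjusted p over 0.05. The cause of these shifts was not tested.

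Of 1460 alternative values of 77 genes, 1224 kept their direction and side of the threshold, 182 lost the threshold, 37 gained it and 17 reversed. Without BCP replicates 3 and 4 the reversed log2 fold changes were 0.69 for Il6, 0.40 for Cxcl1, 0.50 for Ereg, 0.42 for Nr4a1, 0.48 for Egr1, 0.15 for Has1 and -0.77 for Areg. Without the 3 shallowest samples Il4 was at -0.092 and Il13 at -0.19, and with the muscle covariate Il4 was at -0.088. Leaving out 1 sample gave -2.49 to 3.03 for Areg and -0.46 to 0.34 for Il4. Of 703 alternative medians of lists and families, 18 moved by more than the spread between replicates. Without the 3 shallowest samples these were 0.24 (osteoblast), 0.50 (cartilage), 0.04 (marrow stromal) and 1.81 (keratins). Without BCP replicates 3 and 4 they were 0.53 (cartilage), 0.24 (B cell), 0.57 (inflammatory), 0.36 (immediate early), 0.07 (kappa segments) and -0.53 (hyaluronan synthases). The osteoblast median was 0.16 with the block. Without BCP replicate 1 the skin median was 1.35 and that of keratins 1.72, without BCP replicate 4 those of marrow stromal genes and hyaluronan synthases were 0.05 and -0.79, without BCP replicate 3 the heavy segments were at -0.23 and the kappa segments at 0.00, and without BCP+MSC+Treg replicate 3 the heavy segments were at -2.02. The shallowest samples limit what can be said of genes under 1 CPM.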
